A study of Mus musculus with 55 samples.

Results

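Cnih3 encodes cornichon family AMPA receptor auxiliary protein 3, and its gene and annotated transcripts were followed in RNA of the dorsal hippocampus of 55 mice. The members were the 1 gene named Cnih3 among the 55487 genes of the deposited gene counts (ENSMUSG00000026514) and the 3 Cnih3 transcripts among the 109383 transcripts of the deposited transcript counts, which are Cnih3-202, Cnih3-203 and Cnih3-204. A further annotated transcript, Cnih3-201, was not analysed here. Each mouse gave 1 library. The 27 WT mice were 5 males and 4 metestrus, 6 diestrus, 5 proestrus and 7 estrus females, and the 28 KO mice were 7 males and 5 metestrus, 6 diestrus, 4 proestrus and 6 estrus females, all adults of 10.86 to 23.71 weeks on a C57/BL6j background and with no other treatment. KO mice were homozygous for a constitutive Cnih3 allele that lacks exon 4 in every cell. All 28 KO mice and 11 of the WT mice came from Cnih3 breeding, and the other 16 WT mice came from matings of B6 with B6. Stages were read from vaginal cytology.

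Cornichon proteins are membrane proteins of the early secretory pathway. CNIH2 and CNIH3 bind AMPA-type glutamate receptors, help them leave the endoplasmic reticulum and slow their deactivation and desensitisation at the synapse, where AMPA receptors carry most fast excitatory transmission of hippocampal neurons. The other family members, CNIH1 and CNIH4, act mainly as cargo receptors of other secreted or membrane proteins.

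Cnih3 lies on the forward strand of chromosome 1 (chr1:181352628-181460641, GRCm38). In the GENCODE annotation of GRCm38 the transcript Cnih3-201 has 6 exons and 2668 bases, and its reading frame has 160 codons. Exon 4, at chr1:181449970-181450082, is an internal coding exon of 113 bases. It is shown because it is the exon that the KO allele lacks, with 15 bases of exon 3 and 15 bases of exon 5 as they are joined in the mRNA, and exon 4 in capitals.
Exon 4: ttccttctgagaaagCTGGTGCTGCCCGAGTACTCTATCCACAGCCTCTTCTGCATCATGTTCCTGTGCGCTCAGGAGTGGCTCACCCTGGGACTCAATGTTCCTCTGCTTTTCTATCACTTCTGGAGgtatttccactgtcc

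A length of 113 bases leaves a remainder of 2 after division by 3, so that the frame shifts when exon 3 is joined directly to exon 5. The joined sequence is shown with the first in-frame stop codon in capitals. Its first 15 bases are the end of exon 3 and the rest is the start of exon 5.
Exon 3 to exon 5: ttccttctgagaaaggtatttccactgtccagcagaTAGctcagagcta

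In this joined frame 66 codons before exon 4 are followed by 7 further codons and the stop, which gives 73 codons in place of 160. The 3 transcripts with counts differ from Cnih3-201 around this exon, and each of them holds exon 4. Cnih3-202 has 57 more bases at the end of exon 3 (chr1:181409677-181409733, 179 codons), and Cnih3-204 has those bases and 24 more (chr1:181409734-181409757, 187 codons). Cnih3-203 joins exon 4 to the last exon without exon 5 and has 112 codons. The sequences that set these transcripts apart are shown in capitals, with their neighbouring bases in the mRNA in lower case.
Cnih3-202, longer exon 3: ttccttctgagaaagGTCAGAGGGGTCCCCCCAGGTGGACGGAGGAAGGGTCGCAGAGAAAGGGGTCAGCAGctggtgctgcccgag
Cnih3-204, further bases of exon 3: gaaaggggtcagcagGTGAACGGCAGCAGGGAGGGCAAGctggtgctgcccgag
Cnih3-203, exon 4 to the last exon: ctatcacttctggagCATGATTTACACCTT

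**Figure D1:**
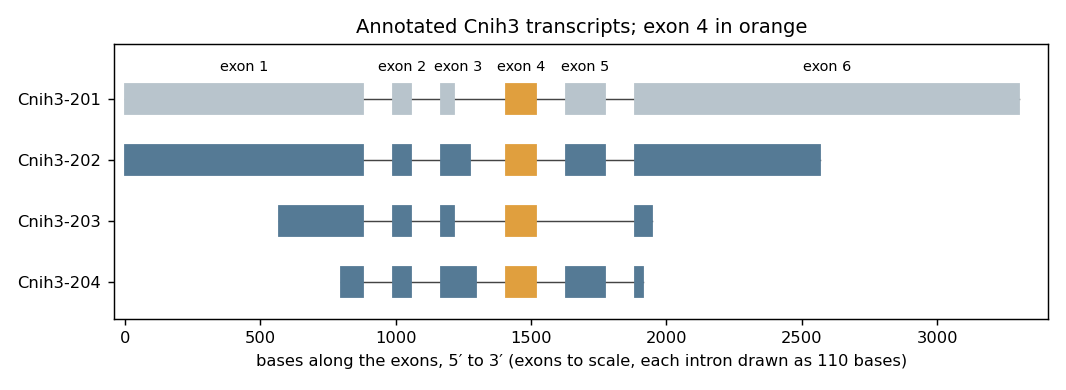
Exons of the 4 annotated Cnih3 transcripts from the 5′ end to the 3′ end, with exon lengths in bases to scale, every intron drawn as 110 bases and exon 4 in orange. Exon 4 is present in all 4 transcripts, Cnih3-203 has no exon 5, and the grey Cnih3-201 was not analysed here.

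Gene counts are reads assigned to the whole gene, and the gene level is given as CPM, the count divided by the total of the library and multiplied by 1000000. Library totals ranged from 25881295 to 63547098 reads, and 818 to 3234 reads fell on Cnih3. Transcript counts are fragments that the authors' quantification assigned to each transcript, with totals of 10896386 to 27195035 fragments, so that 1 fragment was worth 0.0368 to 0.0918 CPM. The tissue expressed dentate granule and pyramidal cell markers in every library, with Prox1 at 59.7 to 135 CPM and Wfs1 at 34.1 to 125 CPM. The choroid plexus marker Ttr ranged from 3.58 to 2007 CPM. In bulk tissue, fewer Cnih3-expressing cells and less Cnih3 RNA per cell cannot be told apart.

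The first comparison asked how much Cnih3 RNA remained in mice without exon 4. Cnih3 RNA remained in every KO mouse and its level was lower than in WT mice. Over all conditions the level was 38.2 ± 10.2 CPM in WT (SD, n = 27, lowest 20.1, median 37.2, highest 58.5) and 30.4 ± 5.96 CPM in KO (SD, n = 28, lowest 19.4, median 29.5, highest 43.6). The genotypes overlapped widely. Of the 28 KO mice, 24 were under the WT median and 1 was under the lowest WT mouse, and 8 of the 27 WT mice were above the highest KO mouse.

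The limma model, with 1 mean for each of the 10 groups, gave a log2 fold change of -0.34 (SE 0.08, FDR = 0.00692), a level 20.9% lower in KO. In this comparison 549 of 16168 genes (3.4%) had a false discovery rate (FDR, Benjamini-Hochberg over all genes tested) under 0.05, 242 of them higher in KO (1.5%) and 307 lower (1.9%), and Cnih3 ranked 180 by p among all genes and 111 among those lower in KO. Without exon 4 Cnih3-201 would be 4.24% shorter, which is -0.06 on the log2 scale. With the RNA integrity number (RIN) of each mouse in the model the limma log2 fold change was -0.28 (SE 0.06, FDR = 0.00375). That fit called 3.34% of genes. With only the 11 WT mice from Cnih3 breeding it was -0.49. These were 4 males, 4 diestrus mice and 1 mouse each of metestrus, proestrus and estrus. The groups weigh equally in this contrast, so that this value leans on single mice. The mean of these 11 was 37.0 ± 11.4 CPM, beside 39.0 ± 9.60 CPM in the 16 WT mice from B6 with B6. In voom without sample quality weights, with all WT mice, the log2 fold change was -0.32 (SE 0.09, FDR = 0.0687), which missed the threshold of 0.05.

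In males Cnih3 was at 27.4, 33.4, 36.0, 50.9 and 54.1 CPM in the 5 WT mice, and at 25.4 to 42.3 CPM with a median of 31.1 in the 7 KO mice. In metestrus the 4 WT mice had 32.2, 34.1, 39.7 and 49.1 CPM and the 5 KO mice had 26.3, 26.7, 27.5, 31.5 and 41.6 CPM. In diestrus the 6 WT mice ranged from 24.3 to 50.7 CPM with a median of 28.3, and the 6 KO mice from 19.4 to 30.9 CPM with a median of 27.04. In each of these conditions the mean was lower in KO and the genotypes overlapped. In diestrus the WT values other than 50.7 CPM reached 34.1 CPM.

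In proestrus the 5 WT mice had 20.1, 31.6, 45.9, 47.1 and 58.5 CPM and the 4 KO mice had 26.4, 30.1, 31.3 and 43.6 CPM. In estrus the 7 WT mice ranged from 32.9 to 53.7 CPM with a median of 38.1, and the 6 KO mice from 24.9 to 39.6 CPM with a median of 28.1. Here too the genotypes overlapped, and the lowest mouse of all WT groups was in proestrus.

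**Figure D2:**
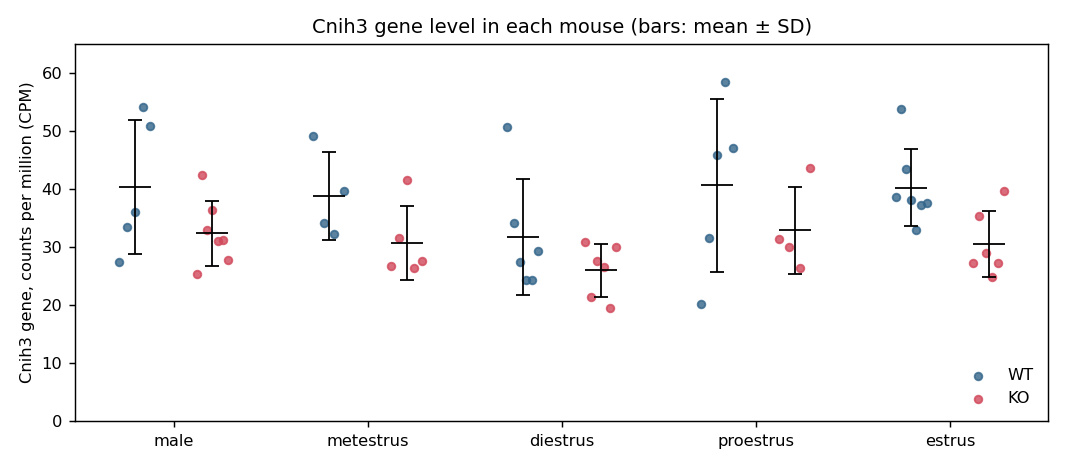
Level of the Cnih3 gene in CPM (vertical axis) for each mouse, by condition (horizontal axis) and genotype (blue WT, red KO), with bars for the mean and SD of each group. KO means of 26.0 to 32.8 CPM sit under the WT mean of the same condition, which is 31.7 to 40.6 CPM, and single mice overlap in every condition.

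The limma log2 fold change of KO against WT was -0.43 in males (SE 0.18, FDR = 0.895). By stage it was -0.32 at metestrus (SE 0.17, FDR = 0.578), -0.23 at diestrus (SE 0.18, FDR = 0.764), -0.36 at proestrus (SE 0.19, FDR = 0.395) and -0.36 at estrus (SE 0.16, FDR = 0.332). None of the 5 passed the threshold, in comparisons that called 1 gene (0.00619% of genes tested), 4 genes (0.0247%), 0 genes (0%), 51 genes (0.315%) and 29 genes (0.179%) in the same order. Diestrus, with 0 genes called in limma, had 1321 genes at an unadjusted p under 0.05. The direction was the same in the 5 conditions, and the difference between KO and WT was not called different between any pair of stages, between a stage and males or between females and males. The smallest FDR of Cnih3 in these 11 interaction tests in limma was 0.866, in tests that called 0 of all genes (394 to 2648 genes at an unadjusted p under 0.05), and their estimates lay between -0.09 and 0.20 on the log2 scale with SEs of 0.20 to 0.26. With the RIN in the limma model the estimates were -0.43 in males and, by stage, -0.26 at metestrus, -0.48 at diestrus, -0.01 at proestrus and -0.23 at estrus, with none called, beside 0.0309%, 0.0247%, 0.0866%, 14.2% and 0.470% of genes called in these fits. In males 2 settings passed the threshold in limma, only WT mice from Cnih3 breeding (-0.66, FDR = 0.0364) and the fit without WT male replicate 2 (-0.71, FDR = 0.0300).

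**Figure D3:**
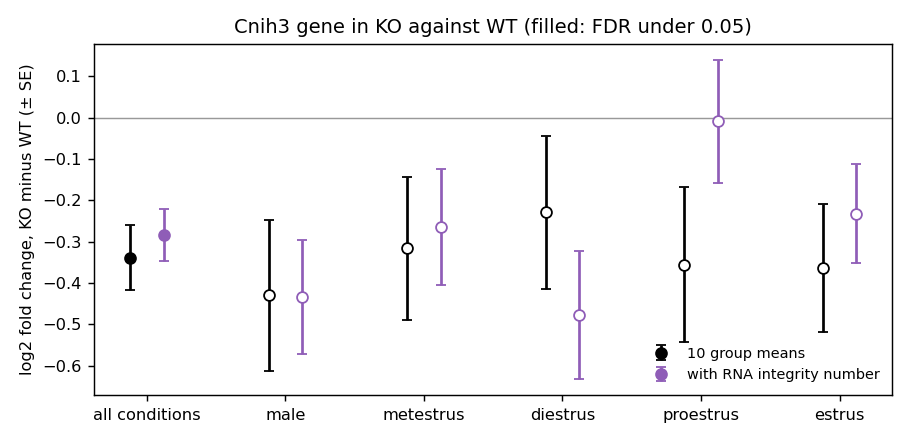
Log2 fold change of the Cnih3 gene, KO minus WT, with its SE (vertical axis) over all conditions and in each condition (horizontal axis), from the limma model with 10 group means (black) and with the RNA integrity number added (purple), with filled points for an FDR under 0.05. The points over all conditions, -0.34 and -0.28, are filled, and those of single conditions are open and range from -0.48 to -0.01.

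The second comparison asked whether the Cnih3 level changed over the estrous cycle or between the sexes. By group means WT mice were ordered from proestrus (40.6 ± 14.9 CPM), males (40.4 ± 11.6), estrus (40.2 ± 6.70) and metestrus (38.8 ± 7.61) to diestrus (31.7 ± 10.0), with SDs over 4 to 7 mice. KO mice were ordered from proestrus (32.8 ± 7.45 CPM), males (32.4 ± 5.62), metestrus (30.7 ± 6.40) and estrus (30.5 ± 5.69) to diestrus (26.0 ± 4.61). The first 4 groups of each genotype lay within 1 SD of each other, and diestrus had the lowest mean in both genotypes. Breeding was uneven over the WT groups. Cnih3 breeding gave 4 of 6 diestrus mice and 4 of 5 males, but 1 of 4 metestrus, 1 of 5 proestrus and 1 of 7 estrus mice. In WT diestrus these 4 had 24.3, 24.3, 27.3 and 29.2 CPM, and the mice from B6 with B6 had 34.1 and 50.7 CPM. Breeding and stage were thus confounded in WT, and the part of breeding in the differences between WT diestrus and the other stages was not tested.

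The limma log2 fold change of WT diestrus against estrus was -0.45 (SE 0.17, FDR = 0.0550), which missed the threshold, beside 22.1% of genes tested that were called in that comparison. The values were -0.42 against proestrus (SE 0.19, FDR = 0.137, 9.66% of genes called), -0.51 against males (SE 0.21, FDR = 0.223, 0.0680%) and -0.35 against metestrus (SE 0.19, FDR = 0.219, 7.24%). In KO the diestrus values were -0.31 against estrus (SE 0.17, FDR = 0.147, 30.7%), -0.29 against proestrus (SE 0.18, FDR = 0.203, 34.3%), -0.31 against males (SE 0.15, FDR = 0.121, 28.7%) and -0.26 against metestrus (SE 0.17, FDR = 0.317, 10.4%). These comparisons share the diestrus mice. None of the 22 comparisons of Cnih3 within a genotype passed the threshold in limma. The other comparisons of stages and males called 0% (metestrus and estrus), 0.767% (metestrus and proestrus) and 6.82% (proestrus and estrus) of genes in WT, and 0.0309% (metestrus), 0.0309% (proestrus) and 0.0495% (estrus) against males. In KO they called 0%, 4.37% and 0.507% in the same order of stages, and 0.359%, 0.315% and 7.66% against males. In limma metestrus against estrus, with 0 genes called, had at most 1367 genes at an unadjusted p under 0.05 in either genotype. The WT females differed from males by -0.21 (SE 0.16, FDR = 1.00, 0.0309% of genes called) and the KO females from males by -0.09 (SE 0.12, FDR = 0.722, 5.93%).

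The WT diestrus results depended on single mice. WT diestrus against estrus passed the threshold in limma when any 1 of 10 mice was left out, which were WT diestrus replicates 1, 2 and 6, WT proestrus replicates 1, 2 and 4, WT estrus replicate 5, WT male replicate 4, KO male replicate 2 and KO metestrus replicate 3. The lowest FDR of these was 0.0103, without WT diestrus replicate 1 (log2 fold change -0.52), and the highest FDR of any fit without 1 mouse was 0.341. After adjustment for the age of the mice it also passed, narrowly (-0.51, FDR = 0.04999). WT diestrus against proestrus passed it without WT diestrus replicate 1, 2 or 6 or WT proestrus replicate 1 or 2 (lowest FDR in limma 0.0176), and WT diestrus against males without WT male replicate 1, 2 or 3 or WT diestrus replicate 1 or 2 (lowest FDR in limma 0.00608).

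The RIN, taken for each mouse from the study's sample table, moved with Cnih3. The correlation of Cnih3 log2 CPM with the RIN was r = -0.69 over the 27 WT mice (Spearman rho = -0.76) and r = -0.52 over the 28 KO mice (rho = -0.58). Permutation p-values for r were 6e-05 in WT and 0.0045 in KO (adjusted over the 2 genotypes 0.00012 and 0.0045), and for rho 2e-05 and 0.0015 (adjusted 4e-05 and 0.0015). Leaving out the 2 mice whose RIN lay farthest from the median gave r = -0.71 and -0.52. With group means removed r was -0.79 in WT (permutation p = 1e-05, the smallest the resampling can give) and -0.50 in KO (permutation p = 0.0080). The RIN had an FDR under 0.05 in limma for 5956 of 16168 genes (36.8%), and for Cnih3 the slope was -1.02 on the log2 scale per RIN unit (SE 0.14, FDR = 3.68e-07).

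With the RIN in the limma model, WT diestrus differed from estrus by 0.00 (FDR = 1.00), from males by -0.03 (FDR = 0.997) and from proestrus by 0.41 (FDR = 0.231), and the last of these had turned sign. In that model Cnih3 was lower in WT proestrus than in WT estrus (log2 fold change -0.41, FDR = 0.0214, beside 22.4% of genes called) and lower than in WT metestrus (0.46 for metestrus minus proestrus, FDR = 0.0341, beside 10.6% of genes called). KO diestrus differed from estrus by -0.24 (FDR = 0.146) and from males by -0.08 (FDR = 0.724). The RIN model was added after the data were seen, and the part of RNA integrity in the stage differences was not tested beyond it.

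The third comparison asked which annotated Cnih3 transcripts still had counts, or changed, in KO mice. All 3 transcripts were rare. Together they were worth 1.31 ± 1.39% of the Cnih3 gene CPM in WT (SD, n = 27) and 2.13 ± 3.33% in KO (SD, n = 28), and 4 WT and 10 KO mice had no count on any of them. The percentage sets fragments against reads, each as CPM of its own table, and is a description of scale.

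Cnih3-203, which joins exon 4 to the last exon without exon 5, had counts in 10 of 27 WT mice and in 0 of 28 KO mice. In males it was counted in 1 of 5 WT mice, with 26.1 fragments. In metestrus it was counted in 2 of 4 WT mice (7.53 and 8.39 fragments) and in diestrus in 3 of 6 (1.30, 3.19 and 3.83 fragments). In proestrus it was counted in 1 of 5 WT mice (1.37 fragments) and in estrus in 3 of 7 (1.501, 2.51 and 8.00 fragments). It was thus seen in WT mice of all 5 conditions and in no KO mouse of any of them, while most WT mice of males, proestrus and estrus also had none. The KO allele lacks exon 4, so that the junction that sets Cnih3-203 apart cannot form in KO mice. Its absence there was largely set by the allele, and the tests of it are not evidence of a further change.

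Fisher's exact test, two-sided, gave p = 0.000288 for the difference in the number of mice with a Cnih3-203 count (0.000865 adjusted over the 3 transcripts). The CPM was 0.114 ± 0.257 in WT and 0 in KO, with a two-sided permutation p = 0.00033 (0.00099 adjusted over the 3 transcripts). The limit that a count of 0 allows, 3 fragments over all 28 KO libraries, is 0.00474 CPM, and the pooled WT level of 0.112 CPM was at least 23.7-fold higher. WT male replicate 4 held 40.97% of the WT fragments, and without this mouse WT was at least 14.5-fold higher. These limits cover counting error only. KO libraries were not shallower, with a mean of 22600764 fragments compared with 21052919 in WT. Of the 11 WT mice from Cnih3 breeding 4 had a count (Fisher's exact test, p = 0.00401). The KO side of this test was likewise largely set by the allele. Cnih3-203 did not pass the filter of over 0.1 CPM in at least 10 libraries and had no test in the transcript model with the filter. Without a filter its FDR in limma was 0.00773, in a fit that called 190 of 86002 transcripts (0.221%).

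Cnih3-204 had 1.35 and 4.21 fragments in 2 of 5 WT males, 3.69 in 1 of 4 WT metestrus mice, 1.26 and 3.07 in 2 of 6 WT diestrus mice and 1.21 and 2.84 in 2 of 5 WT proestrus mice. None of the 7 WT estrus mice had a count. In KO it had 1.52 fragments in 1 of 7 males and 1.86 in 1 of 6 estrus mice. Counts were thus found in 7 of 27 WT and 2 of 28 KO mice, which Fisher's exact test did not separate (p = 0.0776, adjusted 0.116). With only the 11 WT mice from Cnih3 breeding, of which 4 had a count, Fisher's exact test gave an unadjusted p = 0.0423. With all mice the difference in the CPM was -0.0330 (0.0381 ± 0.0762 in WT and 0.00512 ± 0.0188 in KO, permutation p = 0.0297, 0.0445 adjusted over the 3 transcripts). It missed the threshold when mice were resampled within conditions (permutation, adjusted p = 0.0511), and of the 55 fits that each left out 1 mouse 22 passed it. These tests of CPM and of mice with a count were added after the data were seen.

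Cnih3-202, with the longer exon 3, had the highest mean CPM of the 3, and fragments were still assigned to it in KO mice. As annotated it holds exon 4, which the KO allele lacks, so these fragments do not show that the whole transcript remained. CPM is not scaled by transcript length, which is 1995 bases for Cnih3-202, 602 for Cnih3-203 and 564 for Cnih3-204. A higher CPM is thus not a higher number of molecules. It had counts in 13 of 27 WT mice and 17 of 28 KO mice, with 0.326 ± 0.446 CPM in WT (median 0, highest 1.58) and 0.754 ± 1.32 CPM in KO (median 0.200, highest 6.10). The genotypes did not differ past the threshold in CPM (permutation p = 0.109), in the number of mice with a count (Fisher's exact test, p = 0.422) or in the limma transcript model (log2 fold change 0.21, SE 0.76, FDR = 0.979). That model called 92 of 50640 transcripts (0.182%). The SE allows differences of more than 2-fold in either direction.

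The highest values of Cnih3-202 were in KO males. The 7 KO males ranged from 0 to 6.10 CPM with a median of 1.34, and 6 of them had a count. The 5 WT males had 0, 0, 0, 0.691 and 1.58 CPM. The 21 KO females ranged from 0 to 2.39 CPM with a median of 0.102, and 11 had a count. In limma KO males differed from WT males by 2.48 (SE 1.56, FDR = 0.999) and KO females from KO males by -2.78 (SE 0.94, FDR = 0.303), so neither passed the threshold among all transcripts tested. A permutation test of the CPM over mice, run after the high values were seen, gave a difference of 1.61 CPM between KO males and KO females (permutation p = 0.00302, 0.00604 adjusted over the 2 genotypes), and 0.920 CPM without KO male replicate 2 (permutation p = 0.0121). In WT the same difference was 0.158 CPM (permutation p = 0.490), and the difference between genotypes was not tested. The permutation p-values in KO do not account for the choice of this comparison from its own values. The KO males were 18.29 to 23.71 weeks old and the KO females 10.86 to 23.43 weeks, which the permutation test did not account for. Without KO male replicate 2 the mean of the KO males fell from 1.96 to 1.27 CPM. In the other conditions the log2 fold change of KO against WT was between -1.35 in proestrus and 0.70 in estrus, with SEs of 1.54 to 1.90 and no FDR in limma under 0.915. The share of transcripts called in limma was 0.00197% in males, and by stage 0.0178% at metestrus, 0.00987% at proestrus and 0.0217% at estrus.

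**Figure D4:**
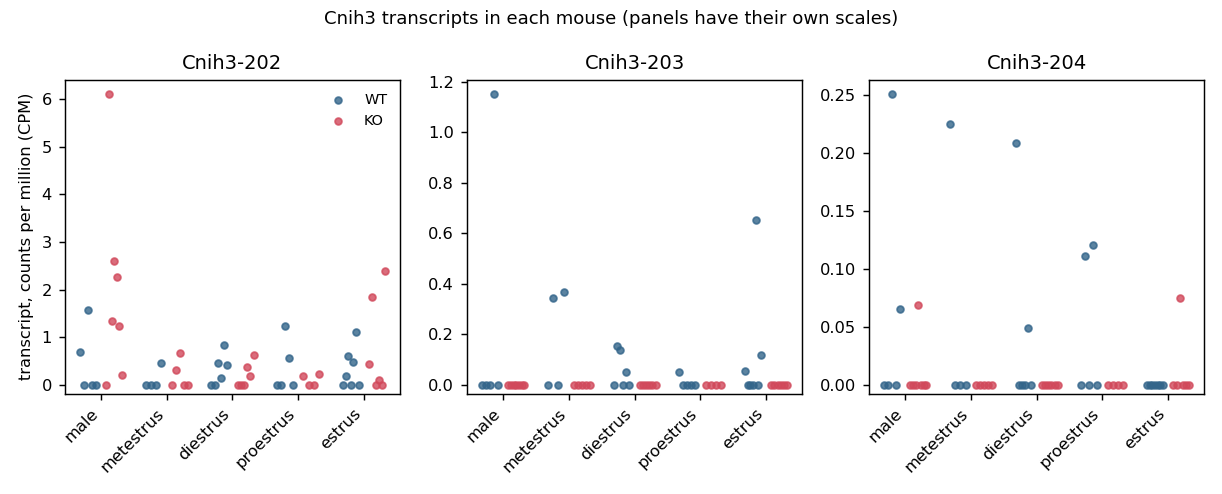
Levels in CPM of Cnih3-202, Cnih3-203 and Cnih3-204 (vertical axes, each with its own scale) for each mouse, by condition (horizontal axis) and genotype (blue WT, red KO). All 28 KO mice lie at 0 for Cnih3-203, 2 KO mice lie above 0 for Cnih3-204, and the highest value of Cnih3-202, 6.10 CPM, is a KO male.

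Among the 23 WT and 18 KO mice with any count on the 3 transcripts, Cnih3-202 held 49.2 ± 46.3% of their summed count in WT and 94.3 ± 23.5% in KO (permutation p = 0.00079, 0.00237 adjusted over the 3 transcripts). Cnih3-203 held 31.8 ± 44.0% in WT and 0% in KO (permutation p = 0.00363, adjusted 0.00544), and Cnih3-204 held 19.0 ± 38.3% in WT and 5.70 ± 23.5% in KO (permutation p = 0.180). The shares of a mouse add up to 100%, so that they do not move independently, and the absence of Cnih3-203 in KO by itself raises the share of Cnih3-202. Within single conditions no share, CPM or percentage of the gene passed the threshold by exact permutation tests (15 tests for each measure, smallest exact p = 0.0333, for the share of Cnih3-202 in males, and smallest adjusted p = 0.500). All transcripts with counts hold exon 4 in the annotation, and the deposited counts do not record which exons the fragments covered, so that fragments counted on Cnih3-202 or Cnih3-204 in KO mice are not evidence of exon 4.

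The last comparison looked at the genes that work with Cnih3. The lists held the other cornichon genes and 27 genes of AMPA receptors and their partners, 30 genes in all, of which 28 were tested. Of these 28, 1 gene, Cpt1c, was called in KO against WT over all conditions in limma, compared with 3.4% of all genes. That count is close to the share over all genes and does not set the lists apart. Cpt1c encodes a carnitine palmitoyltransferase of the endoplasmic reticulum that takes part in AMPA receptor delivery. It rose from 80.5 ± 11.0 to 89.5 ± 11.2 CPM scaled by TMM (log2 fold change 0.16, SE 0.05, FDR = 0.0431), with overlapping ranges of 52.7 to 100 and 66.1 to 113 CPM. The call was lost in edgeR (FDR = 0.185), in DESeq2 (FDR = 0.150) and with the RIN in the limma model (FDR = 0.0815). The median log2 fold change of the 28 genes was -0.01, beside -0.0029 over all genes.

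None of the 3 other cornichon genes was called in limma over all conditions, and 0 had an unadjusted p under 0.05. Cnih2, the closest relative of Cnih3, had 117 ± 30.2 CPM scaled by TMM in WT and 105 ± 26.4 in KO (log2 fold change -0.13, SE 0.07, FDR = 0.351). Cnih1 had 103 ± 10.2 and 100.5 ± 11.7 CPM (-0.04, SE 0.04, FDR = 0.639) and Cnih4 had 36.6 ± 3.24 and 36.0 ± 3.16 CPM (-0.02, SE 0.03, FDR = 0.817). Their ranges in WT and KO overlapped.

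Of the genes of the 4 AMPA receptor subunits 0 were called over all conditions, with 0 at an unadjusted p under 0.05 in limma. Gria1, the subunit gene of highest count, had 632 ± 89.2 CPM in WT and 641 ± 83.9 in KO (0.05, SE 0.04, FDR = 0.632). Gria2, whose edited RNA makes receptors impermeable to calcium, had 597 ± 124 and 586 ± 104 CPM (0.001, SE 0.06, FDR = 0.995). Gria3 had 108 ± 19.3 and 108 ± 16.1 CPM (0.03, SE 0.05, FDR = 0.777) and Gria4 had 11.3 ± 2.28 and 11.7 ± 2.08 CPM (0.09, SE 0.06, FDR = 0.492).

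Of the 6 genes of transmembrane AMPA receptor regulatory proteins (TARPs), the best known auxiliary subunits, 0 were called and 3 had an unadjusted p under 0.05 in limma, with log2 fold changes from -0.11 to 0.14. Among all genes 2772 of 16168 had an unadjusted p under 0.05 in this comparison. Of 12 further auxiliary and assembly genes 10 were tested, and 2 had an unadjusted p under 0.05, Cpt1c among them. Of 5 anchoring and recycling genes 0 were called and 2 had an unadjusted p under 0.05 in limma. In the single conditions 0 of the 28 genes were called in limma, with 1 to 5 at an unadjusted p under 0.05. In edgeR 0 were called, with 0 to 4 at an unadjusted p under 0.05. These comparisons called 0 to 0.315% of all genes in limma and 0 to 0.0433% in edgeR, so that 0 of 28 does not set these genes apart. Among all 16168 genes 845 to 2214 had an unadjusted p under 0.05 in limma. With the RIN in the limma model 9 of the 28 were called in proestrus, 8 of them higher in KO and Cnih1 and Cnih2 among them, beside 14.2% of all genes in that fit.

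**Figure D5:**
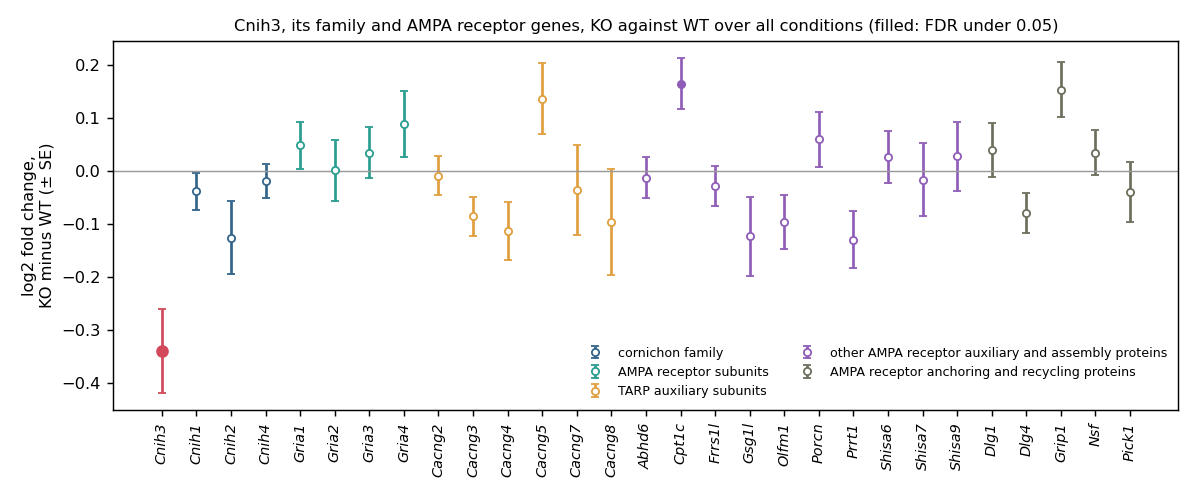
Log2 fold change of KO against WT over all conditions with its SE (vertical axis) for Cnih3 and 28 tested genes of the cornichon family and of AMPA receptors and their partners (horizontal axis, coloured by list), with filled points for an FDR under 0.05. Cnih3 at -0.34 lies under all others, which range from -0.13 to 0.16, and Cpt1c is the only other filled point.

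The genes whose log2 CPM followed that of Cnih3 most closely over the 27 WT mice were Nhlrc1 (Pearson r = 0.91), Pspc1 (0.91), Entr1 (0.90), Stx6 (0.90) and Tpst1 (0.89), among 16167 genes compared. Nhlrc1 encodes malin, a ubiquitin ligase, Pspc1 a paraspeckle protein, Stx6 a syntaxin of the trans-Golgi network and Tpst1 a tyrosylprotein sulfotransferase. Over the 28 KO mice their r was 0.81, 0.79, 0.70, 0.88 and 0.84, and Stx6 ranked 3 and Entr1 127 among all genes there. Each of the 5 also had a lower level at a higher RIN, with r from -0.75 to -0.59 in WT and from -0.56 to -0.36 in KO. The points share library, RNA integrity and tissue dissection. None of the 5 was called in KO against WT in limma, with log2 fold changes of -0.28 to -0.09 and a smallest FDR of 0.0605 for Nhlrc1. Among the 16167 genes Cnih2 ranked 1300 in WT (r = 0.65) and 2174 in KO (r = 0.41). Gria1 ranked 3202 (0.48) and 4995 (0.21), and Gria2 ranked 3550 (0.44) and 3305 (0.32). Gria3 ranked 2979 (0.50) and 2302 (0.40), and Gria4 ranked 1233 (0.66) and 2745 (0.36). Cnih1 had r = -0.15 in WT and 0.07 in KO, and Cnih4 had 0.19 and 0.05. Many other genes thus followed Cnih3 more closely than these family and receptor genes did.

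Cnih3 was also set against 11 lists of cell type markers, by the mean log2 CPM of each list. It rose with the 6 markers of dentate granule cells in WT (r = 0.75, permutation p = 1e-05, the smallest the resampling can give, adjusted over 11 lists 0.00011, and rho = 0.77, adjusted p = 0.00022), and r was 0.74 without the 2 farthest mice. In KO r was 0.50 (permutation p = 0.00669, adjusted p = 0.0368, and rho = 0.50, adjusted p = 0.0414), and r was 0.48 without the 2 farthest mice. With group means removed r was 0.74 in WT (adjusted p = 0.00022) and 0.42 in KO (adjusted p = 0.141). The 5 markers of CA1 pyramidal cells gave r = 0.58 in WT (permutation p = 0.00131, adjusted p = 0.0072, and rho = 0.65, adjusted p = 0.0028) and r = 0.59 in KO (permutation p = 0.00097, adjusted p = 0.0107, and rho = 0.61, adjusted p = 0.00682). Without the 2 farthest mice these were 0.52 and 0.41. With group means removed they were 0.50 in both genotypes, which passed the threshold in WT (permutation, adjusted p = 0.0264) and missed it in KO (permutation, adjusted p = 0.0876). The permutation tests of the lists ask only whether r differs from 0. Many single genes also followed Cnih3, and in WT an r of 0.65 (Cnih2) ranked 1300 among 16167 genes. How often other sets of genes reach the r of these lists was not tested.

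The 4 CA3 markers gave r = 0.47 in WT (permutation p = 0.0125, adjusted p = 0.0396, and rho = 0.49, adjusted p = 0.0319) and 0.20 in KO (adjusted p = 0.570), and in WT r was 0.47 without the 2 farthest mice and 0.44 with group means removed, which missed the threshold (permutation, adjusted p = 0.0589). The 8 choroid plexus markers gave r = -0.47 in WT (permutation p = 0.0144, adjusted p = 0.0396, and rho = -0.48, adjusted p = 0.0319), -0.58 without the 2 farthest mice and -0.66 with group means removed (adjusted p = 0.000935), and r = 0.11 in KO (adjusted p = 0.708). The difference between genotypes was not tested. For astrocytes r was -0.40 in WT (adjusted p = 0.0940, and rho = -0.45, adjusted p = 0.0427) and -0.41 in KO (adjusted p = 0.116). The lists of CA2 cells, interneurons, mature oligodendrocytes, microglia, pituitary and thalamus gave r between -0.24 and 0.27 in both genotypes, with no adjusted p under 0.05.

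Beside the lower Cnih3 level in KO, 2 of the 6 dentate granule markers were lower in KO in limma, compared with 1.9% of all genes tested. C1ql2, a synaptic organiser of mossy fibres, went from 22.1 ± 8.02 to 14.8 ± 5.76 CPM scaled by TMM (log2 fold change -0.59, SE 0.10, FDR = 0.000151) and Stxbp6 from 130 ± 19.8 to 113 ± 16.8 CPM (-0.20, SE 0.05, FDR = 0.0155). The other 4 dentate markers, Prox1, Dsp, Dock10 and Lct, were not called (-0.02, -0.001, -0.07 and 0.05). The summed level of the dentate list ranged from 269 to 489 CPM in WT (median 396) and from 289 to 444.4 CPM in KO (median 354). The median log2 fold change of its genes was -0.05. Of the 4 CA3 markers 1, Bok, was lower in KO (-0.38, SE 0.09, FDR = 0.00615 in limma). The other 3, Nectin3, Grik4 and Cpne4, were not called and went the other way (0.10, 0.23 and 0.03), with a list median of 0.07. The remaining lists had 0 called genes, among them 0 of 5 CA1 markers. The marker lists varied in how closely they followed the RIN. The Pearson r of the list mean with the RIN, given as a description, was -0.45 in WT and -0.21 in KO for dentate granule cells, -0.36 and -0.39 for CA1, -0.32 and -0.37 for CA3, 0.45 and 0.51 for astrocytes and -0.07 and -0.39 for choroid plexus. The part of cell type makeup in the Cnih3 result, and of RNA integrity in its correlations with the lists, was not tested.

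The tested genes nearest to Cnih3 were not called in limma. Ccdc121, which starts 48992 bases after the end of Cnih3 (chr1:181509633-181511451), had 0.796 ± 0.314 CPM in WT and 0.844 ± 0.297 in KO (log2 fold change 0.15, SE 0.19, FDR = 0.740). Rpl35a-ps2, a ribosomal protein pseudogene that ends 110308 bases before Cnih3 (chr1:181241988-181242320), had 12.0 ± 3.48 and 10.7 ± 2.49 CPM (-0.16, SE 0.08, FDR = 0.289), and reads of other Rpl35a copies can be counted on it. Within 2 Mb of Cnih3 on either side 47 other genes were tested, of which 1 was higher and 1 lower in KO (4.26%, compared with 3.4% of all genes).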

How the data were processed

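Dorsal hippocampus RNA of 55 mice was sequenced as paired reads, 1 library per mouse. Per the labels and the study's methods, the authors aligned reads to GRCm38 with STAR 2.7.9a, counted reads per gene with featureCounts 2.0.3 and estimated transcript counts with Salmon 1.5.2. The deposited gene counts are whole raw counts, and the deposited transcript values are estimated counts that need not be whole. The deposited log2 CPM values of the authors were used only to check the filter and scaling, and differed from the values computed here by at most 4.97e-14 over 16164 genes. A single column (1) of each of the tables belonged to no mouse listed here and was left out. Gene totals were 25881295 to 63547098 reads (median 53384170) and transcript totals 10896386 to 27195035 fragments (median 22090762), of which the transcripts given here held 70.1 to 74.8%.

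The 16168 genes tested exceeded 1 CPM in 10 or more libraries, after removal of 5 ribosomal genes, and the 50640 transcripts tested exceeded 0.1 CPM in 10 or more. After TMM scaling, voom with sample quality weights and limma 3.58.1 (R 4.3.3) fitted 1 mean per group, with Benjamini-Hochberg FDR over all features and a threshold of 0.05. edgeR 4.0.16 (quasi-likelihood), DESeq2 1.42.0, voom without weights, no filter, age, RIN, only WT mice from Cnih3 breeding and leaving out each mouse were the alternatives, and edgeR took rounded transcript counts. Permutation tests used 100000 resamples, two-sided, or were exact within conditions. Scripts were tested on simulated data. The genes named were Cnih3 and its transcripts, the other cornichon and AMPA subunit genes, other listed members called over all conditions, the 5 genes most correlated with Cnih3 over WT mice and the nearest tested gene on each side. The dentate and CA3 markers given with a log2 fold change and the members called with the RIN were named after their values were seen. Members and lists were chosen with earlier results of these data known. RIN and parents came from the study's sample table. The mice are separate animals, and those that were littermates could not be told from the labels.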

Additional observations from a re-analysis of the deposited data

Results flagged for a closer look

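In 11 of 31 sets of values of 1 group, 1 mouse stood apart from the rest of its group by Dixon's criterion, which chance meets in about 1 of 20 groups. For the Cnih3 gene it was WT diestrus replicate 1 at 50.7 CPM, with the next mouse at 34.1 CPM. For Cnih3-202 they were KO male replicate 2 at 6.10 CPM (next 2.60) and WT metestrus replicate 4 at 0.455 CPM (others 0). For Cnih3-203 they were WT male replicate 4 at 1.15 CPM (others 0), WT estrus replicate 5 at 0.653 CPM (next 0.117) and WT proestrus replicate 2 at 0.0530 CPM (others 0). For Cnih3-204 they were WT male replicate 3 at 0.251 CPM (next 0.0657), WT metestrus replicate 1 at 0.225 CPM (others 0), WT diestrus replicate 1 at 0.208 CPM (next 0.0489), KO estrus replicate 3 at 0.0749 CPM (others 0) and KO male replicate 4 at 0.0684 CPM (others 0). In sets where most mice are at 0, any count meets the criterion.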

How the results depend on the processing

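The lower Cnih3 gene level in KO over all conditions was called in limma without each of the 55 mice in turn (log2 fold change -0.39 to -0.28, FDR 0.000654 to 0.0317), in edgeR (FDR = 0.0384) and in DESeq2 (FDR = 0.0127), and missed the threshold in voom without quality weights (-0.32). With only WT mice from Cnih3 breeding the difference in males passed it (-0.66), Cnih3-202 in proestrus turned to 1.18 and the Cnih3-204 percentage of the gene passed it (-0.119). That value of Cnih3-202 in proestrus rests on 1 WT mouse. Resampling within conditions left the Cnih3-204 CPM difference of -0.033 past no threshold. With edgeR 0 of the 28 receptor genes were called over all conditions, beside 0.946% of all genes, with 4 at an unadjusted p under 0.05.

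Small stage differences turned sign. In DESeq2 these were WT proestrus against estrus (0.051), KO metestrus against estrus (0.019), KO proestrus against estrus (0.11) and males (0.0093), KO estrus against males (-0.10) and the interaction of estrus and males (-0.050). In edgeR the same 6 were 0.048, 0.013, 0.11, 0.0087, -0.098 and -0.041. In voom without weights KO metestrus and proestrus against estrus were 0.0071 and 0.078, KO estrus against males -0.099 and the interactions of metestrus with proestrus and males and of estrus with males -0.038, -0.0048 and -0.080. With no filter KO metestrus against proestrus was 0.0061, KO estrus against males -0.051 and the interactions of proestrus with estrus and males and of estrus with males -0.017, -0.018 and -0.0011. With age KO metestrus against proestrus was 0.071, KO estrus against males -0.055 and the interaction of proestrus and estrus -0.041. WT diestrus against estrus kept its sign and passed the threshold with age (-0.51).

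With the RIN, added after the data were seen, WT metestrus against proestrus, estrus and males were 0.46, 0.055 and 0.021, WT diestrus against proestrus and estrus 0.41 and 0.00073, and WT proestrus against estrus, which kept its sign and passed the threshold, -0.41. KO metestrus against proestrus, estrus and males were 0.21, 0.022 and 0.19 and KO females against males 0.066. Interactions were, for metestrus with diestrus, proestrus and estrus, 0.21, -0.26 and -0.032, and for diestrus with proestrus, estrus and males -0.47, -0.25 and -0.044. With group means removed the correlation in WT was -0.021 for CA2, 0.44 for CA3 (no longer called), 0.058 for interneurons, -0.025 for oligodendrocytes and -0.0085 for microglia, and in KO 0.50 for CA1 and 0.42 for dentate (neither called any longer), -0.18 for CA2, -0.16 for oligodendrocytes and -0.18 for microglia. The causes of these changes were not tested.

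Leaving out each mouse in turn gave these ranges. For KO against WT males it was -0.71 to -0.17. For WT, metestrus against proestrus gave -0.29 to 0.17, against estrus -0.18 to 0.042 and against males -0.44 to 0.068, diestrus against proestrus -0.64 to -0.19, against estrus -0.52 to -0.33 and against males -0.79 to -0.29, proestrus against estrus -0.25 to 0.20 and against males -0.37 to 0.16, estrus against males -0.34 to 0.15 and females against males -0.48 to 0.023. For KO, metestrus against proestrus gave -0.14 to 0.087, against estrus -0.14 to 0.086 and against males -0.18 to 0.041, proestrus against estrus -0.098 to 0.078 and against males -0.077 to 0.033, and estrus against males -0.099 to 0.084. Interactions of metestrus gave -0.20 to 0.029 with diestrus, -0.18 to 0.27 with proestrus, -0.060 to 0.17 with estrus and -0.13 to 0.39 with males. Those of diestrus gave -0.11 to 0.35 with proestrus and -0.055 to 0.48 with males, those of proestrus -0.21 to 0.25 with estrus and -0.21 to 0.35 with males, of estrus and males -0.20 to 0.34 and of females and males -0.15 to 0.39. For Cnih3-204 the share gave -18.8 to -9.59 percentage points, the CPM -0.036 to -0.025 and the percentage of the gene -0.084 to -0.052.

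No paired analysis was possible because the labels do not say which mice share a litter or cage. The first number of the titles is shared by 2 or more mice in 8 cases, of which 1 holds both genotypes and 7 hold mice of different ages, and what it marks is not stated. A transcript usage test (diffSplice) was not run, since only Cnih3-202 passed the filter, and the share on exon 4 is 100% by annotation. In a single library a transcript level under that of 1 fragment (0.0368 to 0.0918 CPM) could not be seen.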
